A study of Mus musculus with 9 samples.

Results

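The regions described here carried H3K4me3, trimethylation of lysine 4 of histone H3, in a mouse pancreatic cancer cell line with Kdm6a (male WT) and in neither of the lines without it (female KO and male KO). They were chosen by the readout itself. The 3 deposited H3K4me3 lists were merged by overlap on autosomes 1 to 19, and a merged region was kept if the WT list overlapped it by at least 1 bp and neither KO list did. This left 1534 of 18007 merged regions, 8.52%, called WT-alone regions below. Because each is a single region of the WT list, they were also 9.92% of the 15467 autosomal WT regions. "Absent" means only that the authors' caller listed no region there: reads below the call level were not used here.

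Chromatin immunoprecipitation and sequencing was done for H3K4me3, H3K27ac and H3K27me3 in each of the 3 lines, giving 9 libraries. Each line came from pancreas of mice of a C57BL/6-SV129 mix, was cultured in F12/DMEM with EGF and received no treatment. The sources used here do not give the oncogenic alleles, the Cre driver or the age of the mice. Each mark had 1 library per line, so there is no replicate check and no p-value. Line, sex and genotype cannot be told apart between female KO and WT, nor line and genotype between the 2 male lines. Each interval is a 95% Wilson interval over regions taken as independent, and it reflects counting error alone. The lists give no gene names, so the labelled tissue could not be checked against markers.

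H3K4me3 is placed by SET1 and MLL-type methyltransferases and is densest around the start sites of active genes, with weaker and narrower signal at some active enhancers. H3K27ac marks active promoters and enhancers, and H3K27me3 is laid down by the Polycomb complex PRC2 at silenced genes. KDM6A, also called UTX, takes methyl groups off H3K27 and is a partner of the MLL3 and MLL4 methyltransferases, which act mainly at enhancers. Acetyl and methyl groups cannot sit on the same lysine of 1 histone tail, but a region can carry both across alleles, tails or cells.

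WT-alone regions were short and weak in WT. Their median width was 1.8 kb (quartiles 1.2 and 2.6 kb), and their width ranged from 0.2 to 15 kb. Regions found in all 3 lists had a median of 7.2 kb (5.2 to 9.2 kb). That is the width after merging, which the KO lists can lengthen. These regions spanned 91.2 Mb, while the whole WT list covered 79.8 Mb. By length in the WT list alone, 1235 of the 1534 WT-alone regions had up to 2.8 kb, against 1521 of those in all 3 lists. In WT the WT-alone regions held a median of 67 reads, from 13 to 2293, and a median density of 35.6 reads per kb (quartiles 30 and 43.2). The 11646 regions in all 3 lists had a median of 156 reads per kb in WT. WT-alone regions were thus 4.10% of the length that the WT list covered on autosomes and 1.09% of its reads. Only 5 of them reached the median density of the WT list, 132 reads per kb.

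**Figure D1:**
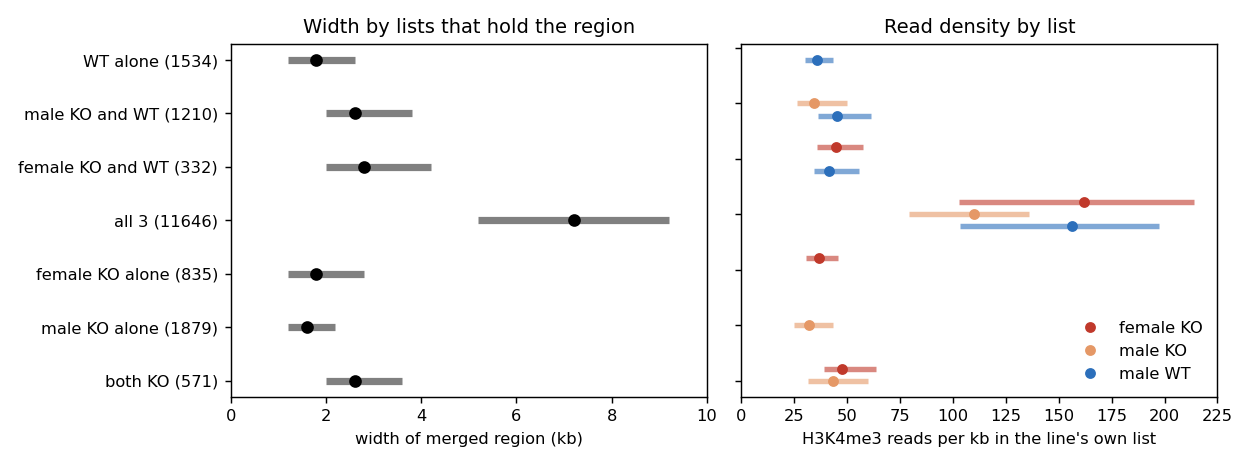
Median (points) and quartiles (bars) of region width in kb (left) and of H3K4me3 reads per kb in each line's own list (right), for the 7 combinations of lists that can hold a merged H3K4me3 region; numbers of regions are in brackets. Regions of a single list had medians of 1.6 to 1.8 kb, and regions in all 3 lists 7.2 kb, the width after merging.

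Regions listed in a single KO line had much the same size. The 835 regions of female KO alone had a median width of 1.8 kb and 36.7 reads per kb, and the 1879 regions of male KO alone 1.6 kb and 32.0 reads per kb. Reads per kb are not scaled between libraries here. Over the 55.8 Mb that all 3 lists held, density was 173 reads per kb in WT, 118 in male KO and 187 in female KO. Scaled by those levels, the median WT-alone region would have 38.6 reads per kb in female KO and 24.3 in male KO. The 5th percentile of the listed regions was 33.8 and 24 in those libraries. Of the 1534 regions, 785 (51.2%) reached both of these limits after scaling, against 98.6% of the regions in all 3 lists. For the other regions the same H3K4me3 density in a KO line would lie among the weakest 5% of regions listed there. The number and the choice of regions changed with the extent of the lists. With each H3K4me3 list cut at its median count 302 regions had the pattern, of which 7 were among the 1534. With lists cut to the same covered length there were 63, of which 39 were among them.

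At the edge of the rule, 103 WT-alone regions abutted a KO region or lay within 1 kb of one (6 abutted), with a median width of 1.6 kb and 32.1 reads per kb. Outside it, 76 WT regions overlapped a KO region by 200 or 400 bp. Those had a median width of 0.4 kb and 45.0 reads per kb. The overlap was a large part or all of a region of that width, so they were not all near misses.

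H3K27ac, which the rule did not use, was more frequent at WT-alone regions in WT than in either KO line. It overlapped 1253 of them in WT (81.7%, 79.7 to 83.5%), 1009 in male KO (65.8%, 63.4 to 68.1%) and 900 in female KO (58.7%, 56.2 to 61.1%). At the regions in all 3 lists the order was the other way, with 77.2% in WT, 88.8% in male KO and 87.0% in female KO. Over all 18007 merged regions the shares were 64.3, 74.2 and 70.7%. The H3K27ac lists covered 109 Mb of autosomes in WT, 145 Mb in male KO and 198 Mb in female KO. WT therefore had the highest share at WT-alone regions with the shortest list. With H3K27ac lists of the same covered length, which removes only KO regions, the shares were 43.5% in male KO and 29.7% in female KO, and WT stayed at 81.7%.

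**Figure D2:**
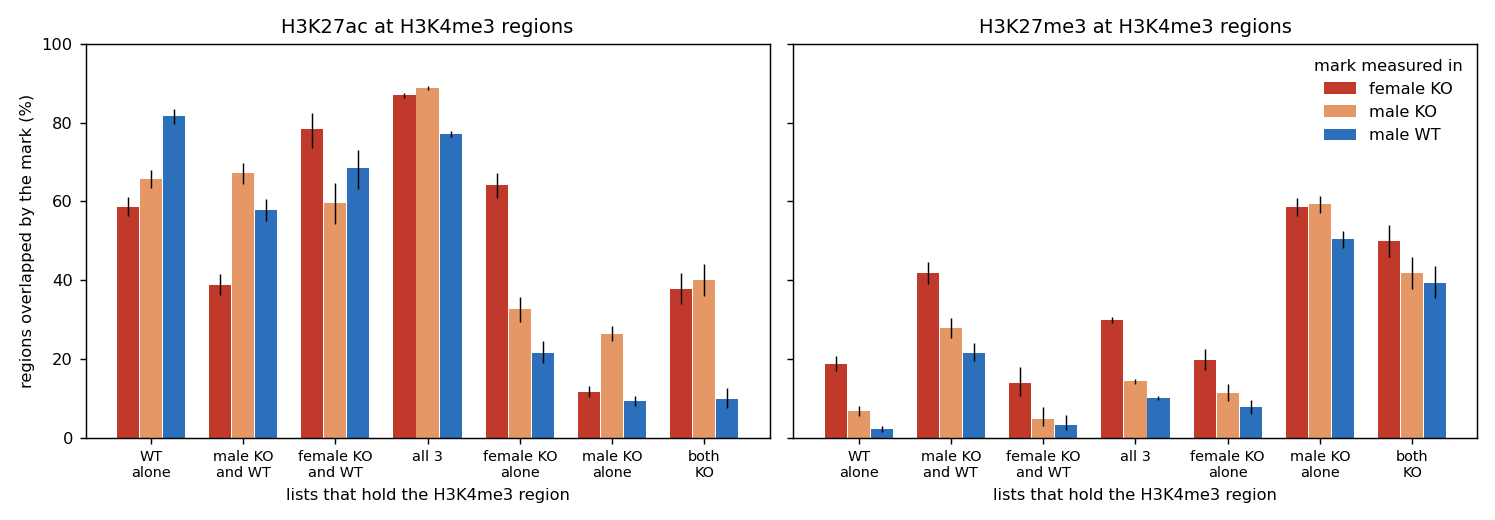
Share of H3K4me3 regions (%) that H3K27ac (left) or H3K27me3 (right) overlapped in each line, by the lists that hold the H3K4me3 region; black bars are 95% Wilson intervals. WT-alone regions had H3K27ac at 81.7% in WT, and male KO-alone regions at 26.4% in male KO.

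The regions of a single KO list also carried H3K27ac most often in their own line, but at lower shares. Female KO-alone regions had it at 64.1% in their own line, 32.6% in male KO and 21.6% in WT. For male KO-alone regions the shares were 26.4% in male KO, 11.7% in female KO and 9.26% in WT. H3K27me3 overlapped 59.3% of the male KO-alone regions in male KO and 19.6% of the female KO-alone regions in female KO. In WT it overlapped 2.15% of the WT-alone regions. In the lists as deposited, regions confined to 1 list thus differed in these shares, although they were alike in width. The lists also differed in extent and call level between lines, and the part of that was not tested.

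At low H3K4me3 density the WT-alone regions differed from regions in all 3 lists, called shared regions here. In the lowest quartile of WT density (up to 57.7 reads per kb) there were 1422 WT-alone regions and 1141 regions in all 3 lists. H3K27ac overlapped 81.6% of the former in WT (79.5 to 83.5%) and 37.0% of the latter (34.2 to 39.8%). H3K27me3 in WT overlapped 2.25% (1.60 to 3.16%) and 28.8% (26.3 to 31.5%). Within that quartile the gap was present at each width and narrower at the longest. H3K27ac in WT was at 73.3% of WT-alone and 15.0% of shared regions of 1 to under 2 kb, and at 91.7 and 33.4% of those of 2 to under 3 kb. It was at 96.8 and 55.6% from 3 to under 4 kb, and at all of 90 WT-alone and 78.9% of 161 shared regions from 4 kb. From 80 H3K4me3 reads per kb, where most shared regions lie, the WT shares were 94.1% of 34 WT-alone regions (80.9 to 98.4%) and 85.6% of 9629 shared regions, and the intervals overlap. The weak shared regions had to be listed in both KO lines as well, so they were selected on KO signal that WT-alone regions lack. In the lowest quartile, 257 regions of the female KO and WT lists were closer to WT-alone regions. WT had H3K27me3 at 3.50% of them (1.85 to 6.52%) and H3K27ac at 68.1% (62.2 to 73.5%). For the 862 regions of the male KO and WT lists these were 24.4 and 51.7%.

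**Figure D3:**
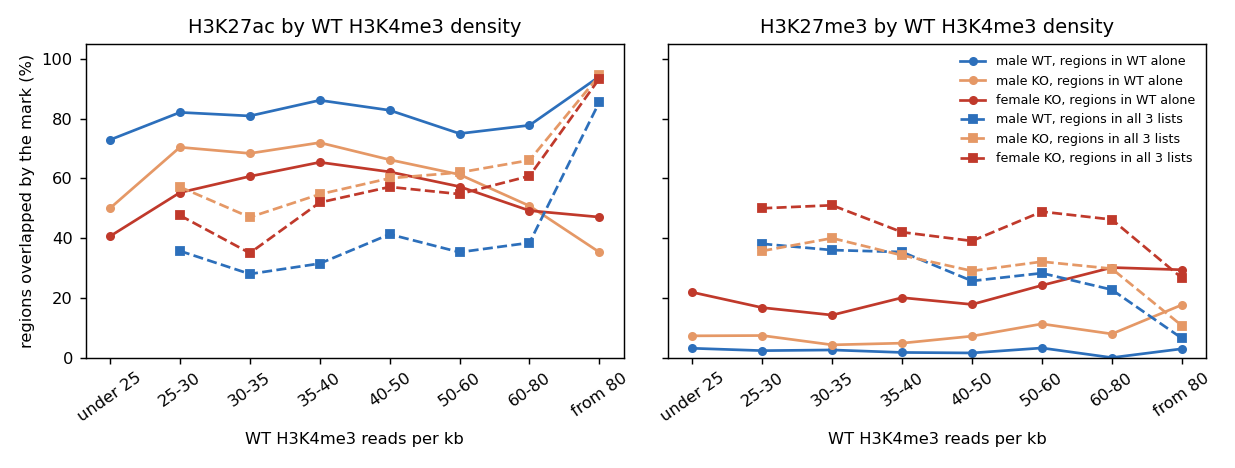
Share of regions (%) overlapped by H3K27ac (left) and H3K27me3 (right) in each line, by WT H3K4me3 reads per kb, for WT-alone regions (circles, solid) and regions in all 3 lists (squares, dashed); points with under 20 regions are left out. In WT, H3K27ac stayed between 72.9 and 94.1% of WT-alone regions across bands and was at 28.0 to 41.3% of shared regions from 25 to 80 reads per kb and at 85.6% of them from 80.

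H3K27ac formed a peak over WT-alone regions in all 3 lines. In WT it covered 80.9% of the region centres and 24.5% of the positions 10 kb to their left. In male KO these were 64.7 and 22.8%, and in female KO 57.9 and 31.0%. Female KO had the highest cover 10 kb away and the lowest at the centre. H3K27me3 showed no peak there. In female KO it covered 16.0% of the centres and 19.9% of those outer positions. The male KO values were 5.80 and 8.67%, and those of WT 1.76 and 3.26%.

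**Figure D4:**
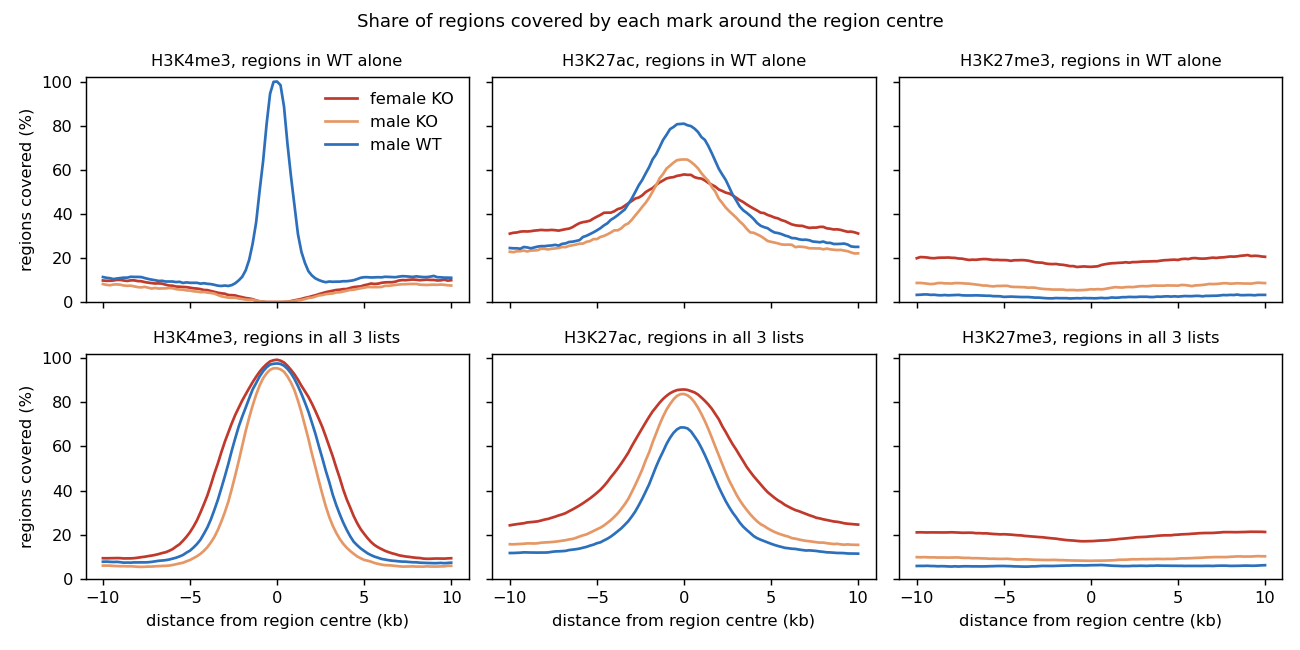
Share of regions (%) covered by listed regions of each mark at each distance (kb) from the centre of the H3K4me3 region, for WT-alone regions (top) and regions in all 3 lists (bottom), 1 line per cell line. At WT-alone regions H3K27ac peaks at the centre, at 80.9% in WT, and H3K27me3 is slightly lower at the centre than 10 kb away in all 3 lines.

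Most WT-alone regions lay inside a longer stretch of H3K27ac. Of the 1253 with H3K27ac in WT, 1132 (90.3%) were wholly inside it. In the lowest quartile of WT H3K4me3 density this share was 92.0%, against 69.2% for regions in all 3 lists. There it was 82.7% in the male KO and WT lists and 76.0% in the female KO and WT lists. The WT H3K27ac region that held the 1253 had a median width of 7.2 kb, against 4.2 kb for all autosomal WT H3K27ac regions. Such a host was as long, 7.7 kb, for weak shared regions in the lowest quartile of WT density, and 7.6 kb for regions in the female KO and WT lists. In 165 of the 1253 (13.2%, 11.4 to 15.2%) that H3K27ac region also held an H3K4me3 region common to all 3 lists. For the weak shared regions, another shared region lay in the same H3K27ac region at 11.4% (8.69 to 14.8%).

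Below, a loss is a mark listed in WT and not in a KO line, and a gain the reverse. H3K27ac was listed in all 3 lines at 749 WT-alone regions (48.8%), in WT and male KO at 223 (14.5%), in WT and female KO at 106 (6.91%) and in WT and neither KO at 175 (11.4%, 9.91 to 13.1%). Over the 14722 merged regions that the WT list overlapped, these shares were 67.9, 4.44, 1.66 and 1.89%. Over all merged H3K4me3 regions, H3K27ac in WT and neither KO was found at 1.55%, and at 0.455% of the regions in all 3 lists. With H3K27ac lists of equal length it was at 34.0% of WT-alone and 14.7% of all merged regions. Of the 302 regions that had the pattern with H3K4me3 lists cut at their median count, nearly all of them other regions, it was at 3.97%, against 0.197% of all merged regions under that cut. A loss in female KO was seen at 398 WT-alone regions (25.9%, background 5.41%) and a loss in male KO at 281 (18.3%, background 3.08%). Regions absent from a single KO list were similar in that line. Among regions with H3K27ac in WT, female KO lacked it at 31.8% of WT-alone regions (29.2 to 34.4%) and at 38.1% of regions in the male KO and WT lists (34.5 to 41.7%). Male KO lacked it at 22.4% of WT-alone regions (20.2 to 24.8%) and at 19.4% of regions in the female KO and WT lists (14.8 to 25%). The opposite pattern, H3K27ac in both KO lines and not WT, was at 15 WT-alone regions (0.978%), against 7.49% of all merged regions. No line listed H3K27ac at 214 WT-alone regions (14.0%), which had a median width of 1.2 kb. Of the 14722 regions, 9.44% had it in no line.

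The regions that lost H3K27ac in both KO lines were those with less of it in WT. They had a median of 23.9 H3K27ac reads per kb in WT, against 37.8 where all 3 lines listed it. The H3K27ac region that held them had a median width of 4.4 kb, against 8.8 kb. At equal WT H3K27ac density, loss was still more frequent at WT-alone than at shared regions, which were selected on KO H3K4me3 signal. These bands were not matched on H3K4me3 density. Of the WT-alone regions with 20 to 25 WT H3K27ac reads per kb, 52 of 193 (26.9%, 21.2 to 33.6%) had none listed in either KO line. Of the regions in all 3 lists it was 21 of 756 (2.78%, 1.82 to 4.21%). At 30 to 40 reads per kb these were 40 of 386 (10.4%, 7.70 to 13.8%) and 7 of 3168 (0.221%, 0.107 to 0.455%). Among all WT H3K4me3 regions with H3K27ac in WT, 2.49% had it in neither KO line, and among the WT-alone regions 14.0% did.

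Where all 3 lines listed H3K27ac, its density, scaled between libraries, was mostly lower in the KO lines than in WT. The median over the 749 WT-alone regions was 37.8 reads per kb in WT, 64.7 in male KO and 51.8 in female KO, before scaling. Divided by the level of each library over bins that all 3 H3K27ac lists held (39.5, 88.2 and 71.0 reads per kb), the median log2 ratio of KO to WT was -0.30 for male KO and -0.36 for female KO. Its quartiles were -0.65 and -0.01 in male KO and -0.75 and 0.04 in female KO. The ratio was below 0 at 571 regions in male KO (76.2%), at 548 in female KO (73.2%) and at 460 in both (61.4%). Over the 8644 regions in all 3 H3K4me3 lists with H3K27ac in every line, the medians were -0.01 and -0.07, and 38.0% were below 0 in both. Regions in the male KO and WT lists had a female KO median of -0.41, below that of WT-alone regions, and a male KO median of -0.05. Regions in the female KO and WT lists had a male KO median of -0.21 and a female KO median of 0.17. Both KO ratios use the same WT library.

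H3K27me3 was rare at WT-alone regions in WT and more frequent in the KO lines. It overlapped 33 of them in WT (2.15%, 1.54 to 3.01%), 103 in male KO (6.71%, 5.57 to 8.08%) and 288 in female KO (18.8%, 16.9 to 20.8%). Over all merged H3K4me3 regions the shares were 15.0, 19.8 and 32.6%. At regions in the female KO and WT lists they were also low, at 3.31, 4.82 and 13.9%. The H3K27me3 lists covered 145 Mb in WT, 237 Mb in male KO and 329 Mb in female KO on autosomes, so this order follows the length of the lists. Cut to equal covered length, the lists gave 2.15, 4.37 and 7.56%. A gain in both KO lines without H3K27me3 in WT was at 65 WT-alone regions (4.24%, 3.34 to 5.36%), against a background of 5.71%. With H3K27me3 lists of equal length it was at 1.5%, against 1.63% of all merged regions. Of the 302 mostly different regions with H3K4me3 lists cut at their median count it was at 12.6%, above the 4.94% of all merged regions under that cut. A gain in female KO was at 258 (16.8%, background 18.9%) and a gain in male KO at 74 (4.82%, background 6.71%). In the lists as deposited these shares were near or below the background. H3K27me3 in WT and neither KO was at 2 WT-alone regions (0.130%, background 0.678%).

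Marks changed together at a small number of WT-alone regions. H3K27ac in WT and neither KO coincided with H3K27me3 in both KO lines and not WT at 22 of them (1.43%, 0.949 to 2.16%), against 0.272% of all merged regions. That is 22 of the 175 that lost H3K27ac in both KO lines (12.6%, 8.45 to 18.3%), compared with 10 of the 749 that kept it in both (1.34%, 0.727 to 2.44%). At regions in all 3 lists the same shares were 18 of 53 (34.0%, 22.7 to 47.4%) and 342 of 8644 (3.96%). The 22 regions were 1 to 4 kb wide, lay on 13 chromosomes and had a median of 40.8 WT H3K4me3 reads per kb. H3K27me3 covered the whole region at 20 of them in female KO and 16 in male KO. The 3 densest, named after their values were seen, were chr1:155499001-155501400 (89.6 reads per kb), chr11:113492001-113495000 (85.7) and chr17:32234801-32238000 (84.7). All positions are 1-based on mm9.

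From the 1248 WT-alone regions with only H3K27ac in WT, 953 (76.4%, 73.9 to 78.6%) had only H3K27ac in male KO and 756 (60.6%, 57.8 to 63.3%) in female KO. Neither H3K27 mark was listed at 246 (19.7%) in male KO and 294 (23.6%) in female KO. H3K27me3 alone was found at 31 (2.48%) and 100 (8.01%). At these regions, neither mark was thus more frequent than H3K27me3 alone in each KO line. Of the 8610 shared regions with only H3K27ac in WT, 1.11% had neither mark in male KO and 1.01% in female KO. H3K27me3 alone was at 0.407 and 1.44% of them, so in female KO the order was the other way. Only H3K27ac was at 93.8% in male KO and 79.1% in female KO.

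A few WT-alone regions were dense enough in WT to stand well above the call level. There were 34 with at least 80 reads per kb, with a median width of 3.4 kb. WT listed H3K27ac at 32 of them, female KO at 16 and male KO at 12, and 11 had it in WT and neither KO. H3K27me3 was listed at 1 in WT (2.94%), 6 in male KO (17.6%, 8.35 to 33.5%) and 10 in female KO (29.4%, 16.8 to 46.2%). Among regions of that density, those in all 3 lists had it at 6.50, 10.7 and 26.7%, in the same order of lines. Those in the male KO and WT lists had it at 11.1, 27.8 and 53.1%. At these 34 regions, all 3 lines listed H3K27ac at 7. As shares, H3K27ac was at 94.1% in WT, 47.1% in female KO (31.5 to 63.3%) and 35.3% in male KO (21.5 to 52.1%). Regions of that density in all 3 lists had 85.6, 93.4 and 94.5%, and the 162 in the male KO and WT lists 87.7, 27.8 and 85.2%.

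**Figure D5:**
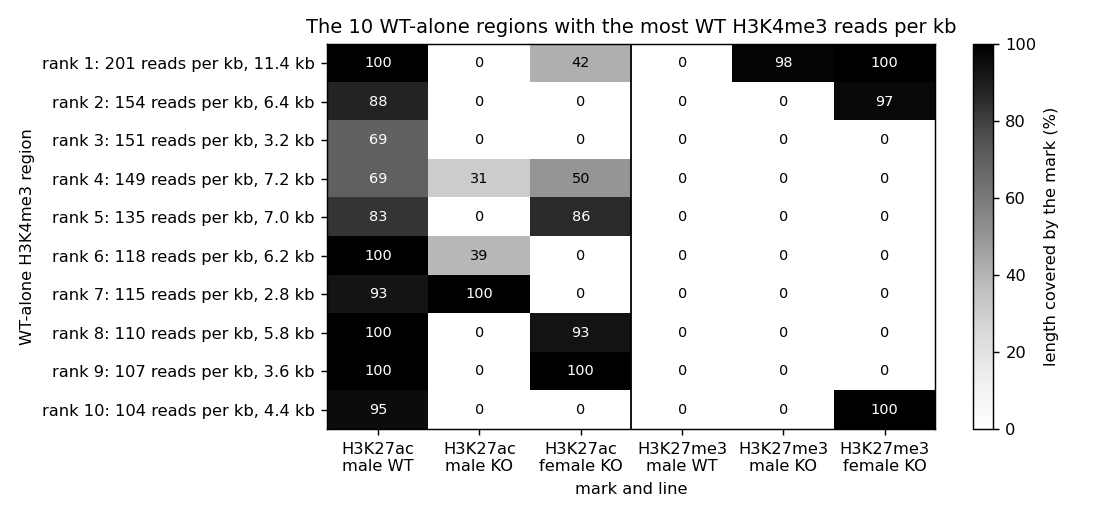
Percent of the length of each of the 10 densest WT-alone regions (rows, ranked by WT H3K4me3 reads per kb) covered by H3K27ac (left 3 columns) and H3K27me3 (right 3 columns) in each line. H3K27ac covers part or all of each region in WT, and 3 of the 10 have none listed in either KO line.

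All of the 10 densest regions carried H3K27ac in WT and lacked H3K27me3 there. The first, at chr5:115412401-115423800, had 201 reads per kb in WT over 11.4 kb, which scales to 218 in female KO and 137 in male KO. H3K27ac reads in it, not scaled between libraries, numbered 712 in WT and 128 in female KO over part of it, with none listed in male KO. H3K27me3 reads, also unscaled, numbered 554 in female KO and 328 in male KO, with no region listed in WT. Over bins that all 3 H3K27me3 lists held, the level was 67.1 reads per kb in female KO and 23.1 in male KO. The unscaled counts therefore do not rank the KO lines. They are parts of listed regions whose counts were spread evenly. This region was the only 1 of the 10 with H3K27me3 in both KO lines.

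The second, at chr17:74854001-74860400 (154 reads per kb), had H3K27ac over 5.6 kb in WT and in neither KO line. H3K27me3 covered 6.2 of its 6.4 kb in female KO, and male KO listed no mark there. At chr19:47431601-47436000 (104 reads per kb) the same pattern held, with H3K27ac over 4.2 kb in WT and H3K27me3 over all 4.4 kb in female KO. The third, at chr7:127316801-127320000 (151 reads per kb), had H3K27ac over 2.2 kb in WT and neither H3K27 mark in the KO lines. Its nearest KO H3K4me3 regions lay 68.8 kb away in female KO and 68.4 kb in male KO.

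In the others, 1 or both KO lines kept H3K27ac. The region at chr1:95545401-95552600 (149 reads per kb) had H3K27ac over 5 kb in WT, 3.6 kb in female KO and 2.2 kb in male KO. Female KO but not male KO listed it at chr19:6260801-6267800, chr17:56689401-56695200 and chr3:92374801-92378400. Male KO but not female KO listed it at chr16:97680201-97686400 and at chr14:58925401-58928200. With the first region, where female KO alone kept it, the KO lines differed in listed H3K27ac at 6 of the 10.

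The longest WT-alone regions were mostly kept as H3K27ac regions. All of the 10 longest, 7.4 to 15 kb, had H3K27ac in WT, 8 had it in female KO and 8 in male KO. At chr16:32735001-32744000 (80.6 reads per kb), H3K27ac covered 8.6 kb in WT, 8.6 kb in male KO and 7.8 kb in female KO, and female KO listed H3K27me3 over 7.6 kb as well. At chr10:126584801-126593200, WT alone listed H3K27ac, over 6.8 of 8.4 kb, and female KO listed H3K27me3 over 5.6 kb. The region at chr9:110920201-110927600 (92.4 reads per kb) had H3K27ac over 5.2 kb in WT and 2 kb in male KO, with H3K27me3 over 7.4 kb in female KO and 1.2 kb in male KO. The region at chr1:92936401-92945400 abutted a female KO H3K4me3 region and lay 1.6 kb from a male KO one.

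Among the longest regions with H3K27ac in WT and neither KO was chr1:21229401-21235800, with 93.4 H3K4me3 reads per kb and H3K27ac over 6 of its 6.4 kb. At chr19:38444601-38449600, H3K27ac covered 4.8 of 5 kb in WT and H3K27me3 4.4 kb in female KO. H3K27me3 in both KO lines and not WT was found at chr8:73241401-73245400, over 3 kb in female KO and all 4 kb in male KO, where WT had H3K27ac over 4 kb. It was also found at chr3:107678001-107683200 and chr8:112561001-112565400, where 1 KO line kept H3K27ac.

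The WT-alone regions with H3K27me3 in WT were short. Of the 33, 28 had it in both KO lines too. The share was similar among all merged regions of the WT list with H3K27me3 in WT, at 1189 of 1471. The longest of the 33, at chr1:75453601-75456400, was covered over its full 2.8 kb in all 3 lines and had no H3K27ac. That at chr11:115181201-115184000 (88.6 reads per kb) was likewise covered over 2.8 kb in each line, with H3K27ac over 1.6 kb in WT. Neither H3K27 mark was listed in any line at 134 of the 1534 WT-alone regions, of which the longest, at chr3:92534601-92537600, spanned 3 kb. No matching count over other H3K4me3 regions is given here, so this does not show whether unmarked regions are unusually common.

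WT-alone regions lay at moderate distances from shared H3K4me3 regions. The median distance to the nearest region in all 3 lists was 25.7 kb (quartiles 7.6 and 67.8 kb), against 6.2 kb for female KO-alone and 63.4 kb for male KO-alone regions. Within 5 kb of a shared region lay 292 of them (19.0%), compared with 47.3% of the female KO-alone and 6.33% of the male KO-alone regions. Among WT-alone regions within 1 kb of a KO H3K4me3 region, H3K27ac in WT was at 63.1% (53.5 to 71.8%). In the groups farther away it was at 80.1 to 85.4%. In female KO, H3K27ac was at 62.1% of those within 1 kb, at 72.8% of those 1 to 5 kb away and at 47.0% of those beyond 100 kb. In male KO it was at 57.3, 73.6 and 58.9%.

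Of the WT-alone regions, 165 had another within 10 kb, in chains of at most 3. A stretch of over 500 kb with no listed region of any of the 3 marks surrounded 75 of them in the female KO lists, 33 in those of male KO and 26 in both. These counts were not made for other H3K4me3 regions, so they do not show whether WT-alone regions are unusually sparse or isolated.

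The share of WT H3K4me3 regions that were WT-alone differed between chromosomes. It was highest on chromosome 1, at 185 of 1013 (18.3%, 16.0 to 20.8%), and lowest on chromosome 4, at 53 of 901 (5.88%, 4.53 to 7.61%). In 50 Mb windows of chromosome 1 it lay between 15.6 and 20%. The level of H3K4me3 in shared bins moved with it. Relative to all autosomes, the log2 ratio of WT to KO was 0.13 for female KO and 0.12 for male KO on chromosome 1, and -0.33 and -0.20 on chromosome 4. H3K27ac gave 0.16 and 0.14 on chromosome 1 and -0.37 and -0.14 on chromosome 4. H3K27me3 moved the same way, with 0.17 and 0.18 on chromosome 1 and -0.47 and -0.29 on chromosome 4. Over the 19 autosomes, the share and the H3K4me3 ratio had a Pearson r of 0.79 for female KO and 0.69 for male KO (Spearman 0.81 and 0.71), a description of values that come from the same libraries. For H3K27ac the Pearson r was 0.80 and 0.72, and for H3K27me3 0.67 and 0.67, in the same order of lines. The part of these levels in the choice of regions was not tested. Without chromosome 1, the 1349 WT-alone regions had H3K27ac at 81.6% in WT, 65.9% in male KO and 58.1% in female KO.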

How the data were processed

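Libraries were grouped by mark, sex and genotype from their titles, 1 per group. The authors deposited 1 list of called regions per library, each with chromosome, start, end and an unscaled read count (so read from its whole-number values and SICER's format). Per the submitters' processing notes, Bowtie 1.1.2, SICER 1 and mm9 were used. The sources used here give no control, threshold or library total. Reads in listed regions ranged from 2396174 to 18507923 per library.

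Lists were put on their 200 bp grid and merged, and a mark was counted from 1 bp of overlap. Counts of a region were spread evenly over its length. No list was filtered, except that chromosomes X and Y were left out by the rule. Shares have 95% Wilson intervals. With 1 library per group no test was run. bedtools 2.31.1 gave the same 1534 regions. The steps were tested on simulated lists. Regions are named by rule: the 10 longest, the 10 with most WT reads per kb, and the 5 longest of each of 4 mark patterns. Some of these are counted only. The members and the rule were chosen with earlier results of these data known. Narrow bands of density and the omission of chromosome 1 were added after seeing the data. Without an mm9 genome or annotation, no gene is named and no sequence printed. Tools were Python 3.11.15 with scipy 1.17.1, pandas 2.3.3, numpy 2.4.6 and matplotlib 3.10.9.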

Additional observations from a re-analysis of the deposited data

Results flagged for a closer look

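Chromosomes X and Y were outside the autosomal rule. On chromosome X, 35 of 493 WT H3K4me3 regions (7.10%) were in neither KO list, and they were flagged because they hold signal in data that the comparisons above did not use. H3K27ac overlapped 24 of these 35 in WT, 14 in male KO and 12 in female KO, and H3K27me3 overlapped 0 in WT, 1 in male KO and 14 in female KO. The count of 0 among 35 regions covers overlap with listed regions only. No mark shares over all chromosome X H3K4me3 regions are given here, so these counts do not show a trait of the 35. Female KO is the only female line, so on this chromosome sex cannot be told apart from line. On chromosome Y, 0 of the 2 WT regions were in WT alone.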

How the results depend on the processing

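Over 9 alternative settings, 64 of 93 values stayed within their interval, within 1 SD or, for the number of regions, within 1.5 times, and 29 moved. The H3K27ac share was highest in WT and the H3K27me3 share followed female KO, male KO and WT in all 9. With H3K4me3 lists cut at their median count, 302 regions had the pattern (width 5.6 kb, 143 reads per kb), 7 of them among the 1534, with H3K27ac at 78.5% (female KO), 87.4% (male KO) and 91.7% (WT) and H3K27me3 at 35.8, 15.9 and 3.31%. H3K27ac in WT and neither KO was then 3.97% and H3K27me3 in both KO and not WT 12.6%. The other 295 overlap a KO region in the lists as deposited. With H3K4me3 lists of the same covered length, 63 regions, 39 of them among the 1534, had a width of 5.8 kb and 81.2 reads per kb. In the same order of lines, their H3K27ac was at 81.0, 58.7 and 100%, so the KO lines changed order. Their H3K27me3 was at 23.8% in female KO and 0% in WT, and at 6.35% in both KO and not WT. Of the 1534 regions, 785 lay above the call limits of both KO libraries. With no KO region within 5 kb, H3K27ac in female KO was 55.5%. With a mark required over 50% of a region, H3K27me3 in female KO was 16.6%. With H3K27 lists of the same covered length, H3K27ac was at 29.7 and 43.5% in female and male KO, and H3K27me3 at 7.56 and 4.37%. H3K27ac in WT and neither KO was then 34.0% and H3K27me3 in both KO and not WT 1.5%. Only KO regions are removed there. The cause of the other changes was not tested. No paired analysis was possible because each group has 1 library. Library depth was not varied.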
